A study of Mus musculus with 8 samples.

Results

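The aorta transcripts described here are those of the mouse Fc gamma receptors, which bind the constant part of immunoglobulin G (IgG), together with their shared signalling chain and the neonatal Fc receptor. The genes were chosen by name: *Fcgr1*, *Fcgr3* and *Fcgr4* (activating receptors), *Fcgr2b* (the inhibitory receptor), *Fcer1g* (the Fc receptor gamma chain) and *Fcgrt* (the neonatal receptor, FcRn). They are 6 of the 21859 genes in the count files, and all 6 were among the 15077 genes that passed a filter on low counts. Whole aortas from *ApoE*-/- (n = 4) and WT (n = 4) mice gave RNA for 1 library each, and all mice were C57BL/6 males aged 40 weeks on a chow diet. *ApoE*-/- mice lack apolipoprotein E, a ligand for the clearance of lipoproteins, in every tissue and develop atherosclerosis. No diet or drug separated the groups, so that genotype was the only factor compared. The sources used here do not give litters or library batches.

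Activating Fc gamma receptors bind IgG immune complexes outside the cell and signal through the gamma chain, whose ITAM motif is phosphorylated by Src-family kinases and then binds the kinase Syk. *Fcgr2b* instead carries an ITIM motif in its own tail, which recruits the inositol phosphatase SHIP1 and dampens signals from activating receptors and from the B cell receptor. FcRn is built like an MHC class I molecule, pairs with beta-2-microglobulin, and returns IgG and albumin from endosomes to the blood. In an atherosclerotic artery these receptors are known mainly from macrophages and other leukocytes, and FcRn also from endothelium.

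In GRCm38 coordinates of GENCODE M21, 4 of the 6 genes lie close together on chromosome 1: *Fcgr2b* (170958617 to 170976547, minus strand), *Fcgr4* (171018920 to 171029761, plus strand), *Fcgr3* (171051174 to 171064935, minus strand) and *Fcer1g* (171229572 to 171234365, minus strand). *Fcgr1* is on chromosome 3 (96282909 to 96293969, minus strand) and *Fcgrt* on chromosome 7 (45092990 to 45103851, minus strand). The exons of *Fcgr2b* overlap an antisense gene, *Gm38204*, over 155 bp; this antisense gene was not analysed here. *Fcgr3* and *Fcgr2b* are near copies in part. Of the 1733 distinct stretches of 50 bases in *Fcgr3* transcripts, 166 (9.58%) also occur in *Fcgr2b*. A read within such a stretch can be placed on one gene only through its mate. No stretch of that length in *Fcgr1*, *Fcgr4*, *Fcer1g* or *Fcgrt* occurs in another gene's transcripts.

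The sequences before the starts of the 3 activating receptors are shown because, of the 6 genes, these held the motif searched for here. They come from RefSeq windows (GRCm38.p6) of 250 bases before a start, read 5' to 3' on the gene's strand and without bases that GENCODE places in an exon. The windows were searched on both strands for GAGGAA, which holds the core bound by ETS-family factors such as the myeloid factor PU.1. Capitals mark the matches. *Fcgr1* is shown over chr3:96293970-96294219, *Fcgr3* over chr1:171059404-171059626 and *Fcgr4* over chr1:171018676-171018919.
Fcgr1: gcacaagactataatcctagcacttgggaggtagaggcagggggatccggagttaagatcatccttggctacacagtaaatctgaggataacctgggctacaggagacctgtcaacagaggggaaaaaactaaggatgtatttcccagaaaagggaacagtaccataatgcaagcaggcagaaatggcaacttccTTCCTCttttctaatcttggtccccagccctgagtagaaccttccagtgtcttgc
Fcgr3: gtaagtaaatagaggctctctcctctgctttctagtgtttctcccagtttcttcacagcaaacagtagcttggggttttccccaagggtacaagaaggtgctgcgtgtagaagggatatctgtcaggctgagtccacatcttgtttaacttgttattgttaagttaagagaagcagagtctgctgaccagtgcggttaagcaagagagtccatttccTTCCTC
Fcgr4: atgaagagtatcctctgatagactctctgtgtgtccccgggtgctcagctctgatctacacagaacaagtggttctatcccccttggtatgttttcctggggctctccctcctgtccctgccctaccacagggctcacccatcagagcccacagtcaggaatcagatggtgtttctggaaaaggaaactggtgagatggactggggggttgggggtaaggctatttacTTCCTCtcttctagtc
Each of the 3 sequences held TTCCTC, the complement of GAGGAA, at positions -55 to -50 in *Fcgr1*, -6 to -1 in *Fcgr3* and -22 to -17 in *Fcgr4*, where -1 is the last base before the start. *Fcgr3* has a second RefSeq start, from which the same match lies at -15 to -10. The windows of *Fcgr2b*, *Fcer1g* and *Fcgrt* did not hold it on either strand. Over all 32851 RefSeq windows of the same length, 23.3% held GAGGAA on either strand. For *Fcgr3*, GENCODE also has transcripts that start further upstream, so that this window lies within the gene. The *Fcgr2b* window lies within its gene too, and 203 of its 250 bases are in GENCODE exons. Its lack of a match therefore says little about sequence outside exons. The matches describe these letters, and binding was not measured.

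Read pairs counted on genes numbered 23240995 to 23940156 in *ApoE*-/- and 18375898 to 21664598 in WT libraries, which was 32.3% to 35.6% and 27.9% to 30.2% of all pairs. The targeted gene, *Apoe*, was lower in every library labelled *ApoE*-/- and averaged 25.2 ± 10.7 CPM, the counts of read pairs scaled to library size, in *ApoE*-/- and 717 ± 145 CPM in WT aortas (SD, n = 4 each). *ApoE*-/- replicate 1 stood apart by its smooth muscle markers, whose 8 genes summed to 5199 CPM against 11536 to 21594 CPM in the other 7 libraries. Cardiac muscle markers summed to 23.7 to 129 CPM in *ApoE*-/- and 222 to 509 CPM in WT aortas. All 7 tested cardiac genes and 5 of 10 endothelial genes were lower in every *ApoE*-/- mouse than in every WT mouse, against 3.3% of all genes tested. In whole tissue, a change in the number of cells of a type and a change in RNA per cell cannot be told apart. CPM were scaled by TMM factors throughout. The median log2 fold change of all tested genes was 0.05.

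The activating receptors, the inhibitory receptor and the gamma chain were higher in all 4 *ApoE*-/- mice than in any WT mouse, while FcRn was not. *Fcgr4* is left out of the counts that follow, because its WT libraries alone would not have passed the low-count filter. Of the other 5 genes 4 were higher without overlap, against 5.41% of all genes tested. By edgeR's quasi-likelihood test with Benjamini-Hochberg adjustment over all tested genes, *Fcgr1* rose, or 1 of 5 genes against 0.371% of all genes called higher, and so did *Fcgr4*. By DESeq2, the tool the study used, *Fcgr1*, *Fcgr3*, *Fcgr2b* and *Fcer1g* passed the same threshold of 0.05, or 4 of 5 genes against 3.23% called higher, as did *Fcgr4*. Without *ApoE*-/- replicate 1, the library with few smooth muscle transcripts, edgeR called these 4 genes and *Fcgr4* higher, when 2.75% of all tested genes were. The median log2 fold change of the 5 genes was 1.53.

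**Figure D1:**
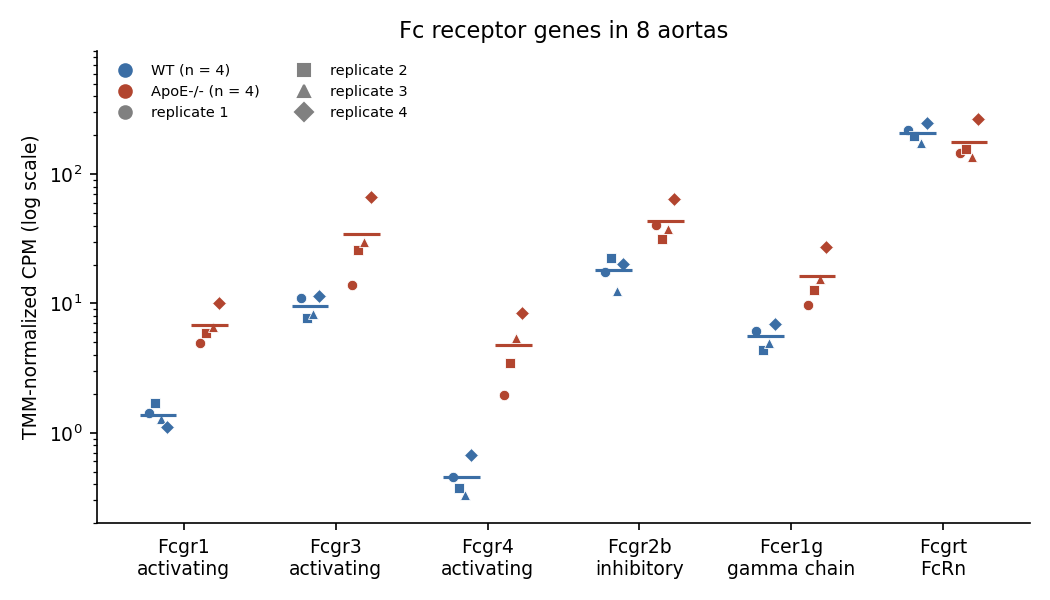
TMM-normalized CPM (log axis) of the 6 genes in each of 4 WT (blue) and 4 *ApoE*-/- (red) aortas, with the replicate number as the marker shape and the group mean as a line. The groups separate for *Fcgr1*, *Fcgr3*, *Fcgr4*, *Fcgr2b* and *Fcer1g* and overlap for *Fcgrt*, and *ApoE*-/- replicate 4 is the highest library for all 6 genes.

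*Fcgr1* encodes the high-affinity receptor (CD64), which can bind IgG that is not in a complex. It measured 4.91, 5.90, 6.53 and 10.1 CPM in *ApoE*-/- replicates 1 to 4 and 1.42, 1.69, 1.27 and 1.10 CPM in the WT replicates. The lowest *ApoE*-/- mouse was thus well above the highest WT mouse. These levels rest on 121 to 233 and 23 to 36 read pairs. The mean was 6.87 ± 2.27 CPM in *ApoE*-/- against 1.37 ± 0.247 CPM in WT aortas (SD, n = 4 each), a log2 fold change of 2.32 ± 0.28 (SE). The adjusted p was 0.0355 in edgeR, 0.0418 in limma-voom and 4.41e-10 in DESeq2. When 1 library was left out, the log2 fold change stayed between 2.07 and 2.45. The edgeR adjusted p was 0.00621 without *ApoE*-/- replicate 1 and above 0.05, up to 0.146, without any other library, so that the call was lost in those 7 fits.

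*Fcgr4* encodes an activating receptor for complexes of IgG2a and IgG2b that is known from monocytes, macrophages and neutrophils. It had the largest difference of the 6 genes and the fewest read pairs. *ApoE*-/- replicates 1 to 4 measured 1.95, 3.45, 5.40 and 8.42 CPM and WT replicates 0.459, 0.374, 0.332 and 0.670 CPM. The *ApoE*-/- mice spread over a wide range, yet each was above all WT mice. The WT values rest on only 6 to 14 read pairs per library and the *ApoE*-/- values on 48 to 194, so that it needed the *ApoE*-/- libraries to pass the low-count filter. The means were 4.81 ± 2.79 and 0.459 ± 0.150 CPM (SD, n = 4 each), and the log2 fold change was 3.37 ± 0.50 (SE), or 10.3-fold. The adjusted p was 0.0396 in edgeR and 1.73e-07 in DESeq2 but 0.0765 in limma-voom. Leaving out 1 library gave log2 fold changes of 2.95 to 3.63, with an edgeR adjusted p of 0.00621 without *ApoE*-/- replicate 1 and 0.0584 to 0.169 without any other.

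*Fcgr3* encodes the low-affinity activating receptor (CD16) and had the highest level per kilobase of exon of the 4 Fc gamma receptors. The *ApoE*-/- replicates measured 14.0, 25.8, 30.0 and 67.1 CPM, a spread with a coefficient of variation of 67.0%, and the WT replicates 11.0, 7.77, 8.25 and 11.3 CPM. *ApoE*-/- replicate 1 was only slightly above the highest WT mouse, and replicate 4 was far above the other 3. The means were 34.2 ± 22.9 and 9.58 ± 1.83 CPM (SD, n = 4 each), with a log2 fold change of 1.83 ± 0.44 (SE). *Fcgr3* missed the threshold in edgeR (adjusted p = 0.116) and in limma-voom (0.208) and passed it in DESeq2 (0.00187). Without *ApoE*-/- replicate 1 the edgeR adjusted p was 0.0180 and the log2 fold change 2.09. The adjusted p was 0.126 to 0.318 without any other library, and without *ApoE*-/- replicate 4 the log2 fold change was 1.28.

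*Fcgr2b*, the inhibitory receptor of B cells and myeloid cells, measured 40.1, 31.6, 37.9 and 64.0 CPM in the *ApoE*-/- replicates. The WT replicates measured 17.5, 22.6, 12.4 and 20.1 CPM. The groups did not overlap, and, unlike the activating receptors, the lowest *ApoE*-/- mouse was replicate 2. The means were 43.4 ± 14.2 and 18.2 ± 4.36 CPM (SD, n = 4 each), a log2 fold change of 1.26 ± 0.26 (SE), the smallest of the 5 genes without overlap. The adjusted p was 0.0787 in edgeR, 0.0941 in limma-voom and 0.000621 in DESeq2, and 0.0473 in edgeR without *ApoE*-/- replicate 1. Without any other library it was 0.0871 to 0.227.

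*Fcer1g*, the ITAM-bearing chain that also serves the high-affinity IgE receptor and several lectin receptors, measured 9.66, 12.8, 15.3 and 27.3 CPM in the *ApoE*-/- replicates. The WT replicates measured 6.10, 4.40, 4.99 and 6.94 CPM. As for the 3 activating receptors, replicate 1 was the lowest and replicate 4 the highest *ApoE*-/- mouse, and the genotypes did not overlap. The means were 16.3 ± 7.69 and 5.61 ± 1.14 CPM (SD, n = 4 each), a log2 fold change of 1.53 ± 0.33 (SE). The adjusted p was 0.0853 in edgeR, 0.135 in limma-voom and 0.000830 in DESeq2, and 0.0193 in edgeR without *ApoE*-/- replicate 1. Leaving out any other library gave 0.104 to 0.259.

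*Fcgrt* had the highest level per kilobase of the 6 genes, and its genotypes overlapped. It measured 145, 157, 135 and 267 CPM in the *ApoE*-/- and 218, 198, 174 and 250 CPM in the WT replicates. In *ApoE*-/- aortas 3 of 4 values lay below all WT values, and replicate 4 lay above them. The log2 fold change was -0.25 ± 0.24 (SE), with an adjusted p of 0.797 in edgeR and 0.813 in DESeq2. Without *ApoE*-/- replicate 4 it was -0.53 in edgeR (adjusted p = 0.207) and -0.54 in DESeq2 (0.0263), so that in DESeq2 this 1 library decided the call. *B2m*, the light chain of FcRn, measured 517 ± 168 CPM in *ApoE*-/- and 436 ± 51.4 CPM in WT aortas (SD, n = 4 each), with a log2 fold change of 0.25 (edgeR adjusted p = 0.801).

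**Figure D2:**
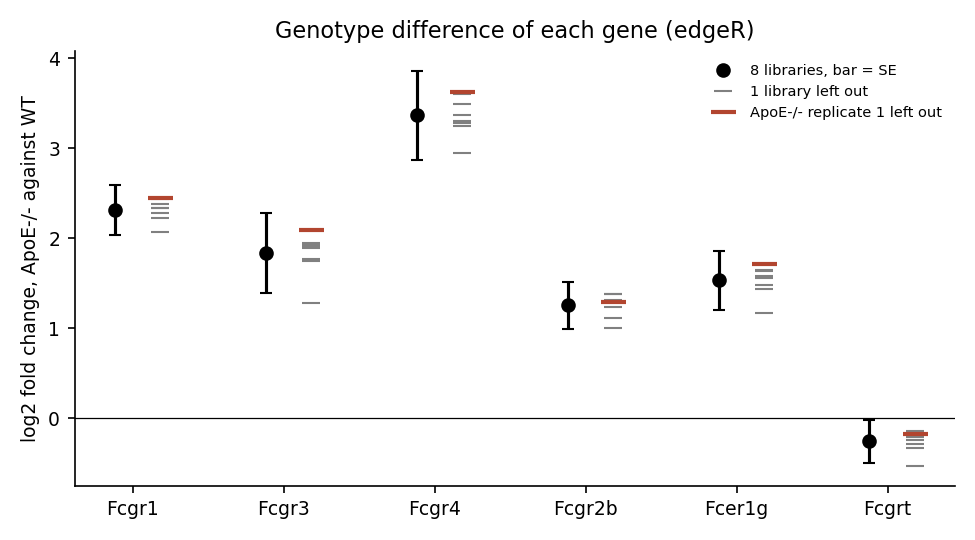
Log2 fold change of each gene between *ApoE*-/- and WT aortas in edgeR, with its SE (black), and the values when 1 library is left out (dashes; red without *ApoE*-/- replicate 1). The estimates for *Fcgr1*, *Fcgr3*, *Fcgr4*, *Fcgr2b* and *Fcer1g* stay above 1 in every fit, and that of *Fcgrt* stays below 0.

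Levels were compared between genes as CPM per kilobase of exon. In WT aortas the order of the means was *Fcgrt* (99.8), *Fcer1g* (6.42), *Fcgr3* (5.52), *Fcgr2b* (3.14), *Fcgr1* (0.529) and *Fcgr4* (0.365). The ranges over mice of *Fcer1g* and *Fcgr3* overlapped, as did those of *Fcgr1* and *Fcgr4*. Within a mouse, *Fcer1g* was above *Fcgr3* in 4 of 4 WT and 2 of 4 *ApoE*-/- mice. In *ApoE*-/- aortas the order was *Fcgrt* (83.8), *Fcgr3* (19.7), *Fcer1g* (18.6), *Fcgr2b* (7.50), *Fcgr4* (3.83) and *Fcgr1* (2.65). *Fcgr3* was above *Fcgr2b* in each of the 8 mice, and *Fcgr4* was above *Fcgr1* in 3 of 4 *ApoE*-/- and 1 of 4 WT mice. The level of *Fcgr2b* per kilobase depends on its long exon model of 5790 bp, which is the union of 7 transcripts.

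The make-up of the 4 Fc gamma receptor transcripts, as shares of their summed CPM per kilobase, separated the genotypes for *Fcgr4* and not for the other 3. The *Fcgr4* share was 8.41% to 14.0% in *ApoE*-/- (11.1% ± 2.30) and 3.20% to 4.87% in WT aortas (3.77% ± 0.746; SD, n = 4 each), without overlap. *Fcgr4* passed the low-count filter only through the *ApoE*-/- libraries, and its WT shares rest on 6 to 14 read pairs, so that this separation is descriptive. *Fcgr3* made up the largest share in both genotypes, 55.7% ± 8.61 in *ApoE*-/- and 57.8% ± 6.66 in WT aortas. The *Fcgr1* share was 8.5% ± 1.59 and 5.66% ± 1.37. The *Fcgr2b* share was 37.6%, 21.6%, 21.3% and 18.3% in the *ApoE*-/- and 29.5%, 41.9%, 28.0% and 31.7% in the WT replicates. *ApoE*-/- replicate 1 thus lay within the WT range for the inhibitory share, and the other 3 *ApoE*-/- mice lay below it.

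**Figure D3:**
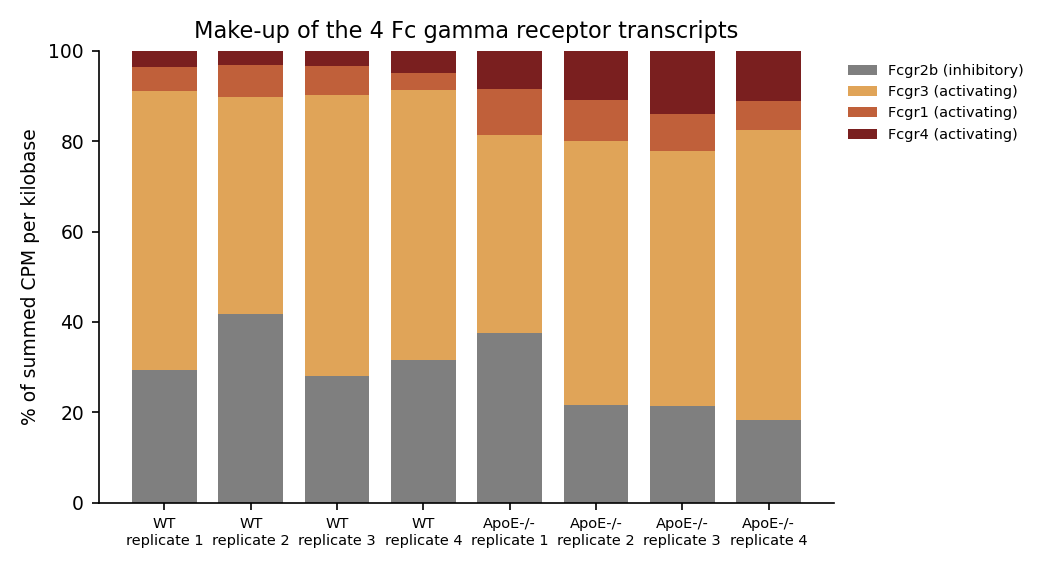
Share of each Fc gamma receptor gene in the summed CPM per kilobase of the 4 genes, 1 bar per mouse. The *Fcgr4* share is 8.41% to 14.0% in *ApoE*-/- and 3.20% to 4.87% in WT aortas, and the *Fcgr2b* share of *ApoE*-/- replicate 1 (37.6%) lies within the WT range. *Fcgr4* passed the low-count filter only through the *ApoE*-/- libraries.

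Each activating receptor was then set against *Fcgr2b* in the same library, with a log2 ratio of CPM per mouse and an exact two-sided permutation test over the 70 assignments of 8 mice. The smallest p this design allows is 0.0286. The log2 ratio of *Fcgr4* to *Fcgr2b* was -4.36, -3.19, -2.81 and -2.93 in *ApoE*-/- and -5.25, -5.92, -5.22 and -4.91 in WT replicates. Every *ApoE*-/- mouse was higher, by 2.00 on average (4.00-fold; exact p = 0.0286). *Fcgr4* passed the low-count filter only through its *ApoE*-/- values, with 6 to 14 read pairs in WT libraries. Its p is therefore not independent of that filter and is not taken as support. The log2 ratio of *Fcgr1* to *Fcgr2b* was -3.03, -2.42, -2.54 and -2.66 in *ApoE*-/- and -3.62, -3.75, -3.28 and -4.19 in WT replicates, again without overlap, with a difference of 1.05 (2.07-fold; exact p = 0.0286). For *Fcgr3* the groups overlapped, with a difference of 0.39 (exact p = 0.371). After adjustment over the 9 ratios tested here, the smallest value was 0.0514, so that none passed 0.05.

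The sum of the 3 activating receptors per kilobase was 1.66, 3.64, 3.68 and 4.46 times the *Fcgr2b* level in *ApoE*-/- and 2.40, 1.39, 2.57 and 2.16 times in WT replicates. *ApoE*-/- replicates 2 to 4 were above all WT mice, whereas replicate 1 was below 3 of them. The gamma chain, set against the same sum, stood at 0.960, 0.738, 0.728 and 0.633 in *ApoE*-/- and 0.966, 0.928, 1.04 and 1.06 in WT replicates, and these groups overlapped through *ApoE*-/- replicate 1. These sums are given without a test.

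Macrophage markers were higher in the same libraries as the receptors. Of the 10 markers, 9 were higher without overlap in *ApoE*-/- aortas (5.41% of all genes) and 6 were called by DESeq2 (3.23%). edgeR called 1 (0.371%), *Cx3cr1*, the fractalkine receptor, with a log2 fold change of 2.16 and an adjusted p of 0.0355. edgeR called 6 (2.75%) and DESeq2 9 (5.75%) without *ApoE*-/- replicate 1. Their median log2 fold change was 1.42. Their summed CPM was 468, 930, 1105 and 1963 in *ApoE*-/- replicates 1 to 4 and 389 to 456 in WT aortas, and no marker was at 0 in all libraries. Relative to the geometric mean of these markers in the same library, *Fcgr4* was still higher in every *ApoE*-/- mouse, by 1.87 on the log2 scale, and *Fcgr1* by 0.92 (exact p = 0.0286 for each, 0.0514 after adjustment). For *Fcgr4*, which passed the low-count filter only through its *ApoE*-/- values, this p is not taken as support. Relative to the same markers, *Fcgrt* was lower in every *ApoE*-/- mouse, with a difference of -1.67 (exact p = 0.0286, adjusted 0.0514). The marker mean itself was higher by 1.37 on the log2 scale, while *Fcgrt* alone overlapped between genotypes (-0.25, edgeR adjusted p = 0.797). A gene without a genotype difference is also lower by such a ratio.

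*Fcgr3*, *Fcgr2b* and *Fcer1g* overlapped between genotypes once set against the macrophage markers. The log2 differences were 0.25 for *Fcgr3* (exact p = 0.257), -0.13 for *Fcgr2b* (0.657) and 0.08 for *Fcer1g* (0.657). With 1 library left out they ran from 0.12 to 0.36 for *Fcgr3* (lowest without *ApoE*-/- replicate 4), from -0.36 (without *ApoE*-/- replicate 1) to -0.02 (without WT replicate 2) for *Fcgr2b*, and from -0.04 (without WT replicate 2) to 0.17 for *Fcer1g*. The choice of marker moved these values. Against *Cd68* alone, a lysosomal protein of macrophages, the *Fcgr1* difference was 0.29 (exact p = 0.400) and those of *Fcgr3*, *Fcer1g* and *Fcgr2b* were -0.37, -0.55 and -0.76. Against *Csf1r* alone, the receptor for macrophage colony-stimulating factor, *Fcgr3* and *Fcer1g* were higher in *ApoE*-/- aortas by 0.85 and 0.67 (exact p = 0.0286 for each), and the *Fcgr2b* difference was 0.46 (exact p = 0.114). The *Fcgr4* difference was 1.25 to 2.46 against *Cd68*, *Csf1r* or *Adgre1* alone.

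**Figure D4:**
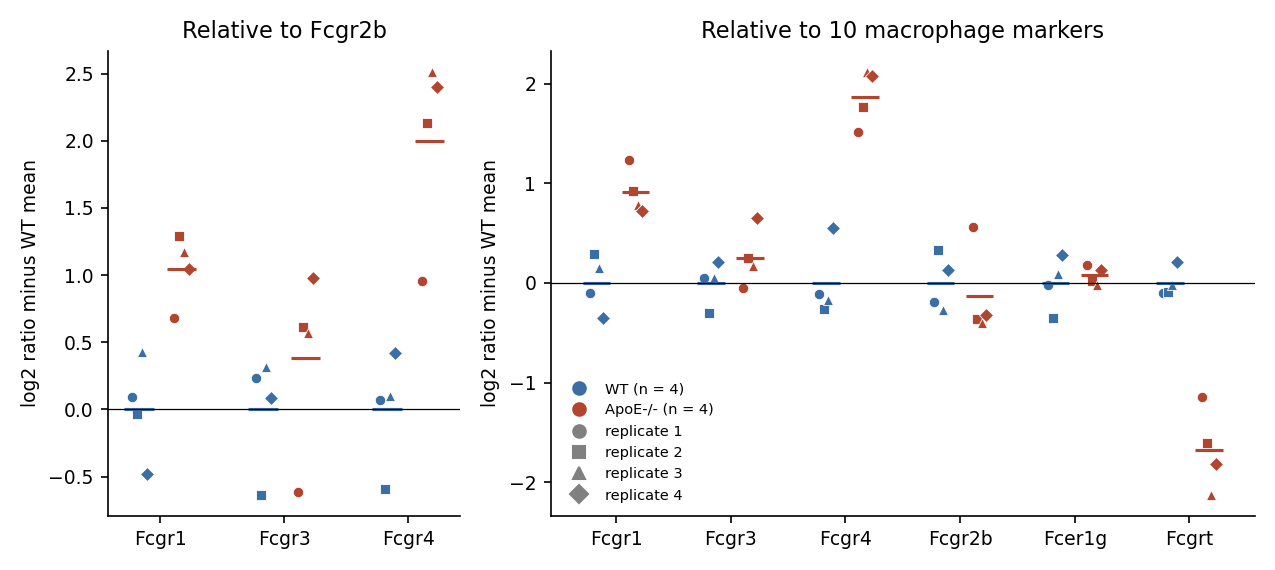
Log2 ratio of each gene to *Fcgr2b* (left) and to the geometric mean of 10 macrophage markers (right) per mouse, with the WT mean of each ratio set to 0 and group means as lines. *Fcgr1* and *Fcgr4* lie above the WT values in all 4 *ApoE*-/- mice in both panels, *Fcgrt* lies below them on the right, and *Fcgr2b* of *ApoE*-/- replicate 1 lies apart from the other 3. *Fcgr4* passed the low-count filter only through the *ApoE*-/- libraries.

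Markers of other leukocytes that carry Fc receptors were set beside these values. B cell markers summed to 27.7, 18.8, 32.4 and 17.3 CPM in *ApoE*-/- replicates 1 to 4 and to 11.9 to 15.6 CPM in WT aortas. *Bank1*, an adaptor of the B cell receptor, had a log2 fold change of 1.14, with an adjusted p of 0.0856 in edgeR and 0.00204 in DESeq2. Neutrophil markers summed to 8.40 to 19.1 CPM against 2.78 to 4.27 CPM, but only 2 of 10 passed the filter: *Csf3r*, the receptor for granulocyte colony-stimulating factor (edgeR adjusted p = 0.0379), and *S100a9* (0.0696), which needed the *ApoE*-/- libraries to pass. The defining neutrophil marker *Ly6g* had at most 3 read pairs in any library. NK cell markers summed to 3.37 to 5.76 CPM against 1.64 to 2.98 CPM, and mast cell markers overlapped (17.9 to 75.7 against 23.1 to 47.5 CPM). The part of these cell markers in the receptor differences was not tested.

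Kinases and adaptors downstream of the gamma chain lay mostly above their WT levels. All 22 listed genes had a log2 fold change above 0, as had 58.0% of all genes tested, with a median of 1.24, and 15 were higher without overlap (5.41% of all genes). edgeR called 2 (0.371% of all genes), limma-voom 1 (0.139%) and DESeq2 16 (3.23%). Without *ApoE*-/- replicate 1 edgeR called 13 (2.75%). Without *ApoE*-/- replicate 3, WT replicate 2 or WT replicate 4 edgeR called 0 of all genes tested, so that every edgeR call given here was lost in those fits. *Fgr*, a Src-family kinase of myeloid cells, measured 5.68, 7.04, 10.7 and 11.1 CPM in *ApoE*-/- and 1.79, 1.40, 0.997 and 0.766 CPM in WT replicates. The log2 difference was 2.79 ± 0.35 (SE), at an adjusted p of 0.0355 in edgeR. *Vav1*, a signalling protein of blood cells that is phosphorylated by Syk, measured 8.40, 12.2, 15.9 and 21.5 CPM against 4.73, 3.98, 2.88 and 3.54 CPM. The log2 difference was 1.94 ± 0.30 (SE), at an adjusted p of 0.0462. *Dock2*, a signalling protein of leukocytes, had a log2 fold change of 1.19 (adjusted p = 0.0526).

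Phosphatases and other inhibitory effectors had a lower median log2 fold change than the kinases and adaptors, though single genes of the 2 lists overlapped. All 10 had a log2 fold change above 0 (58.0% of all genes), the median was 0.41 and 2 were higher without overlap (5.41%). edgeR and limma-voom called 0 of them, 4 were higher at an unadjusted edgeR p under 0.05 (7.19%), and DESeq2 called 2 (3.23%). edgeR called 1 (2.75%) and DESeq2 4 (5.75%) without *ApoE*-/- replicate 1. *Ptpn6*, which encodes the phosphatase SHP-1, had a log2 fold change of 1.43 (edgeR adjusted p = 0.109, DESeq2 0.00354). *Dok3*, an adaptor of inhibitory signalling, had 0.74 (0.110 and 0.00888). *Inpp5d*, which encodes SHIP1, the phosphatase that binds the *Fcgr2b* tail, measured 30.8, 39.4, 48.5 and 71.8 CPM in *ApoE*-/- and 31.3, 26.9, 28.7 and 30.4 CPM in WT replicates. Its groups overlapped through *ApoE*-/- replicate 1, with a log2 fold change of 0.70 and an adjusted p of 0.279 in edgeR and 0.133 in DESeq2. Whether the 2 lists differ from each other was not tested.

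Of 9 other receptors that pair with the gamma chain, 5 passed the filter. *Clec4e* (Mincle), a lectin receptor for mycobacterial glycolipid and products of dead cells, had 27, 26, 30 and 45 read pairs in *ApoE*-/- and 2, 2, 1 and 2 in WT replicates (edgeR adjusted p = 0.0170). Because the WT counts are this low, its fold change is not given. The neighbouring lectin receptors *Clec4d* and *Clec4n* (Dectin-2) were also higher without overlap, at 0.812 to 8.16 against 0.138 to 0.287 CPM and 1.91 to 8.07 against 0.388 to 1.01 CPM, with edgeR adjusted p of 0.0652 and 0.1000. The DESeq2 adjusted p was 9.48e-07 for *Clec4e*, 3.49e-05 for *Clec4d* and 0.00141 for *Clec4n*. *Clec4e*, *Clec4d* and *Clec4n* passed the filter only through the *ApoE*-/- libraries, so that no count over the list is given. *Clec4n* had 7 to 22 read pairs in WT libraries.

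Of 11 other Fc receptors listed, 3 passed the filter. *Fcrl1*, a receptor of B cells, measured 0.974, 0.612, 1.92 and 1.13 CPM in *ApoE*-/- and 0.413, 0.281, 0.111 and 0.335 CPM in WT replicates, with adjusted p of 0.109 in edgeR and 0.0207 in DESeq2. It passed the filter only through the *ApoE*-/- libraries, with 2 to 9 read pairs in WT libraries. *Fcer2a*, the low-affinity IgE receptor CD23, measured 0.825 to 1.66 against 1.11 to 1.63 CPM, and *Trim21*, a cytosolic receptor for antibody, 14.7 to 24.4 against 14.96 to 20.3 CPM. The groups of both overlapped. *Jchain*, the joining chain of secreted IgM and IgA, measured 51.9, 9.10, 30.4 and 37.7 CPM in *ApoE*-/- and 18.6, 19.8, 8.59 and 24.6 CPM in WT replicates, with a log2 fold change of 0.85 and an edgeR adjusted p of 0.635. The immunoglobulin heavy and light chain genes were not analysed here.

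**Figure D5:**
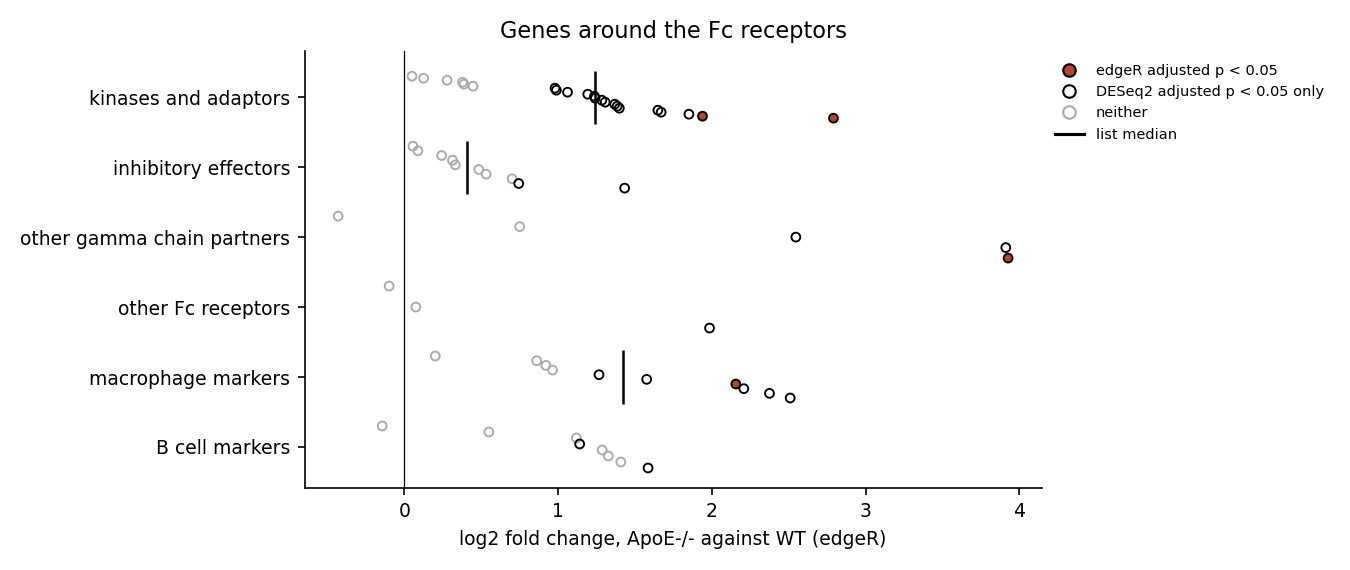
Log2 fold change in edgeR of each tested gene in 4 lists around the Fc receptors and in the macrophage and B cell marker lists. Filled red points pass an adjusted p of 0.05 in edgeR, open black points in DESeq2 only, and grey points in neither. Medians (lines) are drawn where WT libraries alone would have passed every gene of the list, and are 1.24 for kinases and adaptors, 0.41 for inhibitory effectors and 1.42 for macrophage markers.

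The genes whose pattern over the 8 libraries was most like that of each receptor were found by the root mean square (RMS) difference of log2 CPM, with every gene centred on its own mean. The points are 8 libraries that share depth and genotype, so that the measure is descriptive. For *Fcgr3* the nearest were *C1qb* (RMS 0.111) and *C1qc* (0.157), which encode chains of the complement component C1q, and *Plek* (0.183), a protein kinase C substrate of blood cells. For *Fcer1g* they were *Lrrc25* (0.169), *C1qc* (0.177) and *C1qa* (0.180), while *Fcgr3* ranked 13. For *Fcgr4* they were *Tlr13* (0.205), a sensor of bacterial ribosomal RNA, *Mpeg1* (0.216), a pore-forming protein of macrophages, and *Slamf7* (0.343).

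For *Fcgr1* the nearest genes were *Gpr35* (0.212), *Lair1* (0.213), an inhibitory collagen receptor of leukocytes, and *Zc3h12d* (0.266). For *Fcgr2b* they were *Sash3* (0.0970), an adaptor of lymphocytes, the complement gene *C4b* (0.157) and *Tnfrsf13b* (0.159), which encodes the B cell receptor TACI. Among the 15077 tested genes, *Fcer1g* ranked 176 in likeness to *Fcgr2b*, *Fcgr3* 715, *Fcgr1* 941 and *Fcgr4* 13022. The RMS of *Fcgr4* to *Fcgr2b* was 1.01, above the median of 0.767 over all genes. For *Fcgrt* the nearest were *Gm11808* (0.0910), *Rps2* (0.102), a ribosomal protein gene, and *Clec2d* (0.107), with edgeR adjusted p of 0.908, 0.818 and 0.723.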

How the data were processed

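Stranded, ribodepleted total RNA from 8 mouse aortas was sequenced in paired reads, 1 library per mouse. The authors deposited, for each library, raw counts of the read pairs on every gene, without normalization or pooling; per the labels' processing notes, TopHat2, HTSeq and GRCm38 (mm10) were used, and versions and the annotation are not given in the sources used here. Of the gene identifiers, 21817 were found in GENCODE M21 and 42 were not. Pairs without a gene (50.1% to 58.0%), with an ambiguous gene (0.850% to 1.32%) or aligned to several places (11.8% to 14.3%) stayed out of all tests. No other column of per-sample values was left out.

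Genotype and replicate number came from the labels. Counts were filtered with filterByExpr and compared with the quasi-likelihood F test of edgeR 4.0.16 (TMM, robust, R 4.3.3), two-sided, with genotype as the only factor and Benjamini-Hochberg adjustment over 15077 genes at 0.05. The SE was the log2 fold change divided by the square root of F. DESeq2 1.42.0 and limma-voom (limma 3.58.1) were alternatives. DESeq2 gave no adjusted p for 504 genes. Log2 ratios used CPM without added counts, and likeness used log2 CPM with a prior count of 2. Exon lengths were unions of GENCODE exons. Other alternatives were 2 other normalizations, the replicate number as a block, each library left out, estimation that was not robust, and 2 other low-count filters. The main edgeR fit, DESeq2 and limma-voom were also run on simulated counts, and the other alternatives were not. P-values measure the spread between mice.

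The genes and lists were chosen with earlier results of these data known. Named were the 6 receptor genes, in each pathway or marker list the genes past 0.05 in edgeR and the 3 with the smallest p, and the 3 genes most like each receptor. A few other values, such as *Apoe* and *Ly6g*, were added as checks. Same-numbered libraries of the 2 genotypes were not paired: their deviations correlated at 0.06, -0.45, 0.32 and 0.16.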

Additional observations from a re-analysis of the deposited data

Results flagged for a closer look

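One value stood apart within its group. The log2 ratio of *Fcgr2b* to the macrophage markers was 0.50 in *ApoE*-/- replicate 1 and -0.45 to -0.38 in the other 3 *ApoE*-/- mice, so that the gap took up 0.926 of the group's range, above Dixon's critical value for 4 values. In all, 32 groups of 4 were examined and 1 exceeded the value, where chance gives about 1 in 20, or 1.6 groups. The same library had the lowest summed macrophage markers of the *ApoE*-/- mice (468 CPM), summed B cell markers of 27.7 CPM and the lowest summed smooth muscle markers (5199 CPM). Their part in the ratio was not tested.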

How the results depend on the processing

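The direction of all 6 genes was the same under every alternative. An adjusted p under 0.05 was reached by 70 genes in edgeR, 725 in DESeq2, 29 in limma-voom and 0 to 593 when 1 library was left out of edgeR (593 without *ApoE*-/- replicate 1, 0 to 17 without any other). DESeq2 also called *Fcgr3* (log2 fold change 1.83), *Fcgr2b* (1.25) and *Fcer1g* (1.53), and kept all 5 calls without any 1 library, while limma-voom lost *Fcgr4* (3.15). The cause of the difference between tools was not tested. With 1 library left out of edgeR, log2 fold changes were 2.07 to 2.45 for *Fcgr1*, 2.95 to 3.63 for *Fcgr4*, 1.28 to 2.09 for *Fcgr3*, 1.01 to 1.38 for *Fcgr2b*, 1.17 to 1.72 for *Fcer1g* and -0.53 to -0.14 for *Fcgrt*. With the replicate block, 2 genes were called, and *Fcgr1* (2.28, adjusted p = 0.132) and *Fcgr4* (3.23, 0.112) were not; the numbers belong to different mice. Ratios to a single macrophage marker changed for *Fcgr1* (0.29 with *Cd68*), *Fcgr3* (0.85 with *Csf1r*) and *Fcer1g* (0.67 with *Csf1r*), and the *Fcgr2b* difference ran from -0.76 with *Cd68* to 0.46 with *Csf1r*. *Fcgr4* was not tested when at least 10 counts were required in every library. Leaving out 1 mouse, the exact test cannot go below 0.0571, so only values were compared there. The counts per pathway list without *ApoE*-/- replicate 1 were added after seeing the data. Among the 6 genes depth limits *Fcgr4* most, with 6 to 14 read pairs in WT libraries.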
